A study of Rattus norvegicus with 46 samples.

Results

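The supraspinatus tendon, the part of the rotator cuff that lifts the arm, was compared in rats 14 days after it had been cut (tenotomy), with the subacromial bursa above it removed or left in place. The comparison used 12 of the 46 libraries of the series: 6 tendons with the bursa removed and 6 with the bursa intact, taken by their labels. All 12 tendons carried the tenotomy, so by their labels the groups differed in the bursectomy only. Values from the same 2 arms at day 3 (6 removed and 6 intact tendons) and from 5 control tendons of rats without surgery are given where they help to read a level. The labels state no strain, age or sex. The design text says that tendons were taken from both shoulders and controlled within each rat. No label ties a replicate number to a rat, so a pair below means removed and intact libraries of equal number.

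A tendon is mostly collagen laid down by tendon fibroblasts, which are marked by the transcription factor scleraxis (Scx) and the membrane protein tenomodulin (Tnmd). A cut tendon heals through inflammation, then cell division and a scar of collagen types I and III, which is remodelled by matrix metalloproteinases over weeks. The bursa is a thin synovial sac that lets the tendon glide under the acromion, and the study asked what its removal does to the healing tendon. RNA was enriched for poly(A) messages and sequenced from whole tissue, so more cells of a type and more RNA per cell cannot be told apart.

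Total estimated counts were 16595364 to 22139961 in the bursa removed and 14152211 to 22499130 in the bursa intact libraries. Levels are given as CPM, counts per 1000000 counts of the library after TMM normalization, and differences as log2 fold changes, removed over intact, ± standard error, from an edgeR quasi-likelihood fit of all 29 tendon libraries. This fit held no term for the pairs, so its errors and intervals include the spread between pairs. Values from fits within pairs are named as such. A gene was called when its Benjamini-Hochberg adjusted p was under 0.05. Tendon markers were present in all 12 day 14 libraries. Tnmd ranged over 1217 to 1755 CPM in removed and 1222 to 2201 CPM in intact tendons, against 161 to 443 CPM in control tendons. The tendon cell list as a whole lay the other way against control. Its mean log2 CPM was 6.96 to 7.30 in removed, 6.83 to 7.50 in intact and 7.45 to 8.77 in control tendons. Control levels are shares of another RNA mix, with 24.7 to 36.5% of counts from the mitochondrial genome. Scx was at 45.5 to 109.6 CPM in removed and 57.1 to 83.0 CPM in intact tendons. Skeletal muscle transcripts were present in every library too, and their levels are given beside some of the results.

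Between tendons with the bursa removed and tendons with the bursa intact, 0 of 15000 tested features passed (0% called), in either direction. The features were 13882 named genes and the transcripts that carry no name here. At an unadjusted p under 0.05 there were 153 features (1.02%), 98 higher and 55 lower in removed tendons, and the smallest adjusted p was 1. DESeq2 on the same 29 libraries called 1 feature (0.00667%), an unnamed transcript with counts in 3 of the 6 removed and 0 of the 6 intact libraries. The 95% intervals show how large a difference these libraries allow. Of 8680 named genes with a mean of at least 10 CPM in a group, 8475 (97.6%) had an interval that lay wholly within a 2-fold change, and 8108 (93.4%) within a 1.5-fold change. The median interval reached 0.20 on the log2 scale to either side of its fold change. A p that misses the threshold does not show that a gene was the same in both groups, and each interval stands for its own gene only.

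Removed and intact libraries of equal number deviated together at day 14, and a fit of the 12 libraries with that number as a block, chosen after this was seen, had narrower intervals. It also called 0 of 14181 features (0%). At an unadjusted p under 0.05 it held 600 features (4.23%), against 248 in the same 12 libraries without the block, 347 of the 600 higher and 253 lower in removed tendons. Its smallest adjusted p was 0.165. Within pairs, 98.5% of 8678 named genes had an interval within 2-fold and 96.6% within 1.5-fold. Over all features, 224 (1.49%) were higher in the removed tendon in 6 of 6 pairs and 202 (1.35%) were lower in 6 of 6. Random signs give 6 of 6, in either direction, with a probability of 0.0312, and these shares were no higher. A count of 6 of 6 pairs alone therefore does not set a gene apart here. In 5 features (0.0333%) all 6 removed libraries lay above all 6 intact ones, and in 6 (0.04%) all lay below. A random split of 12 libraries leaves no overlap, in either direction, with a probability of 0.00216, and these shares were no higher. A lack of overlap alone therefore does not set a gene apart here.

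**Figure D1:**
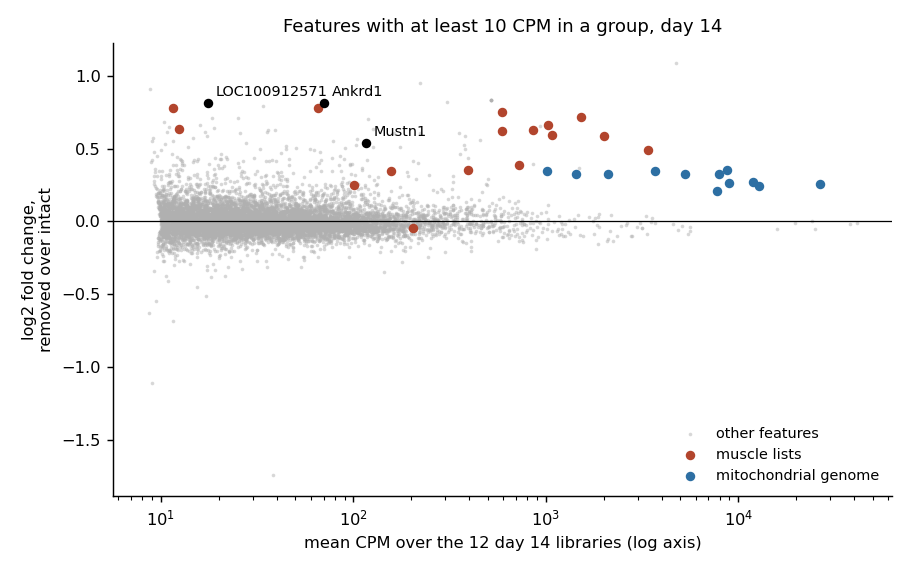
Each point is a feature with at least 10 CPM in a group; the horizontal axis is its mean CPM over the 12 day 14 libraries (log axis) and the vertical axis its log2 fold change, bursa removed over bursa intact. Red points are members of the muscle lists and blue points the mitochondrial genome, most of which sit above 0, and black points are named genes described in the text.

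The authors' deposited table for these 2 groups called 2 of 18481 genes (0.0108%), Mustn1 and LOC100912571. Mustn1 encodes a small nuclear protein of muscle and skeletal tissues. For Mustn1, the lowest, median and highest levels were 75.7, 132 and 240.2 CPM in the 6 removed tendons and 48.2, 96.5 and 134 CPM in the 6 intact tendons. The groups overlapped, yet Mustn1 was higher in the removed tendon in 6 of 6 pairs, and pair 4 was the highest and pair 6 the lowest in both arms. The log2 fold change was 0.54 ± 0.33 in the 29 library fit (95% interval -0.14 to 1.22, edgeR adjusted p = 1.00). Within pairs it was 0.53 ± 0.070 (interval 0.37 to 0.68, edgeR adjusted p = 0.165), the smallest p of any feature. DESeq2 with the same block gave 0.53 ± 0.079 (adjusted p = 3.7e-07). The authors' deposited table, whose sign is intact over removed, lists -0.52 (adjusted p = 4.2e-07). Mustn1 was therefore called by DESeq2 with the block and in the deposited table, and by no edgeR fit. The deposited standard errors lay within 10% of that blocked DESeq2 fit for 99.4% of 11458 genes. These 2 calls rest on the same libraries and nearly the same fit, so they are not separate support.

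Leaving out both libraries of a pair in turn kept the Mustn1 difference within 0.46 to 0.58 on the log2 scale, with edgeR adjusted p from 0.104 to 0.956. Control tendons, which held far more muscle RNA, had 558 to 1008 CPM. The muscle level, the mean log2 CPM of the skeletal muscle list, was higher in the removed tendon in 4 of 6 pairs. In pairs 3 and 5 its removed minus intact difference was -0.27 and -0.16, where the Mustn1 log2 ratio was 0.41 and 0.50. A link between Mustn1 and the muscle level was not tested. With the muscle level as a covariate beside the block, the Mustn1 log2 fold change was 0.43 ± 0.063 (edgeR adjusted p = 0.0874). The same covariate in the fit of 29 libraries gave 0.24 ± 0.19. At day 3, in other libraries, Mustn1 was at 304 to 1288 CPM in removed and 209 to 498 CPM in intact tendons. It was higher in removed tendons in 6 of 6 pairs there, by 0.88 ± 0.33 (edgeR adjusted p = 0.608). The difference between the days was -0.34 ± 0.46 on the log2 scale, which did not pass.

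The sequence shown is the 250 bases before the RefSeq start of Mustn1, given because it is the gene of the table's smallest p. It lies in GRCr8 at chr16:6079105-6079354, on the plus strand, 5′ to 3′. Capitals mark the only match to the E-box CANNTG, the motif bound by myogenic and other helix-loop-helix factors, 11 bases before the start.
Mustn1: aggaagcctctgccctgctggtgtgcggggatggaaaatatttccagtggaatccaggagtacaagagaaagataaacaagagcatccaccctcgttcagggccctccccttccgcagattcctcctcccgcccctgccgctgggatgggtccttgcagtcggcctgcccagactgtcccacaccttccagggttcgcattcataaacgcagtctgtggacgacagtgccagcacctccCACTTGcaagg
On either strand, an E-box was present in 65.5% of 33469 RefSeq promoters of the same length. The AP-1 motif TGANTCA (6.34% of promoters), TATAAA (12.9%) and the muscle motif M-CAT, CATTCC (12.1%), had no match in this window.

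For LOC100912571, the 6 removed tendons lay between 8.98 and 33.3 CPM with a median of 23.3 CPM, and the 6 intact tendons between 8.91 and 16.5 CPM with a median of 12.6 CPM. It was higher in the removed tendon in 6 of 6 pairs, but the pair with the lowest levels, number 6, was nearly equal (8.98 CPM removed and 8.91 CPM intact). Its log2 fold change was 0.81 ± 0.26 in the 29 library fit (edgeR unadjusted p = 0.00379, the smallest among named genes of at least 10 CPM with higher levels in removed tendons) and 0.74 ± 0.17 within pairs (edgeR adjusted p = 0.923). DESeq2 with the block called it (0.73 ± 0.15, adjusted p = 0.0186). At day 3 its log2 fold change was 0.20 ± 0.25, higher in 4 of 6 pairs. The same DESeq2 fit called 4 of 14181 features (0.0282%), all higher in removed tendons: these 2, an unnamed transcript, and Mt-nd4l, a complex I subunit encoded by the mitochondrial genome (0.34 ± 0.077, adjusted p = 0.0488). In edgeR, Mt-nd4l had 0.22 ± 0.076 with the block and the muscle level (adjusted p = 0.984) and 0.13 ± 0.19 with the muscle level in 29 libraries. DESeq2 on the 12 libraries without the block called 0, with 227 at an unadjusted p under 0.05.

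**Figure D2:**
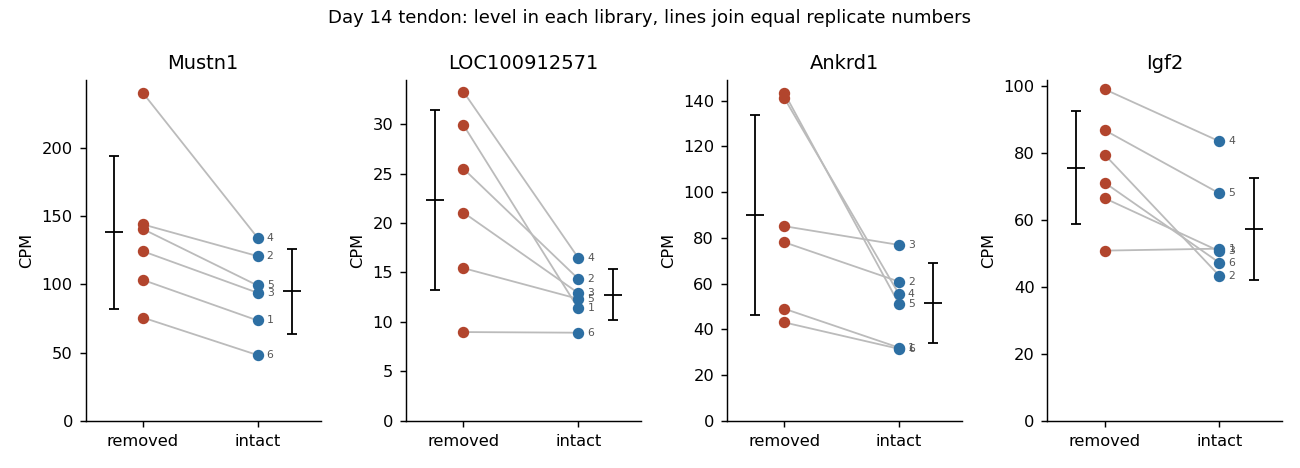
CPM of Mustn1, LOC100912571, Ankrd1 and Igf2 in each day 14 library, bursa removed at the left and bursa intact at the right of each panel; lines join libraries of equal replicate number, numbers at the right name them, and black bars are the group mean ± SD of 6 libraries. Every line for Mustn1, LOC100912571 and Ankrd1 runs down, or nearly level for LOC100912571 replicate 6, from removed to intact, while the points of the 2 groups overlap.

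Skeletal muscle genes mostly had higher levels in tendons with the bursa removed, with none past the threshold. Of 13 tested genes of the list (16 in all), 0 passed and 12 had a log2 fold change above 0, against 50.6% of all features. Their median was 0.59, beside 0.0016 over all features, and the range was -0.047 (Myh7) to 0.75 (Pvalb), Myh7 being the slow myosin heavy chain and Pvalb the calcium buffer of fast fibres. For Mylpf, the fast muscle regulatory light chain, levels ran over 769 to 4299 CPM around a median of 1624 CPM in the 6 removed tendons, and over 402 to 2068 CPM around 1135 CPM in the 6 intact tendons. The Mylpf log2 fold change was 0.71 ± 0.45 (interval -0.21 to 1.64), with removed replicate 4 the highest and intact replicate 6 the lowest library. Ckm, the muscle creatine kinase, had 0.59 ± 0.47 and Acta1, skeletal actin, 0.59 ± 0.46. The summed level of the list was 7669 to 32774 CPM in removed and 3679 to 14568 CPM in intact tendons, so the groups overlapped, and 65688 to 99130 CPM in control tendons.

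The size of this difference rested partly on removed replicate 4. Removed replicate 4 had the highest muscle level of the 12 libraries, a mean of 10.60 log2 CPM over the list, and its intact partner had 9.47. Intact replicate 6 had the lowest, 7.59, and its removed partner 9.39. The level was higher in the removed tendon in 4 of 6 pairs. Without removed replicate 4 the list's median log2 fold change was 0.18. Over the 12 ways of leaving out a library the median was 0.18 to 0.73, with 11 to 13 of 13 genes above 0.

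Genes of embryonic and denervated muscle had a median log2 fold change of 0.61, with 8 of 10 tested members above 0 and 0 passing. The median was 0.45 to 0.76 as single libraries were left out. For Myh3, the embryonic myosin heavy chain, the lowest, median and highest levels were 36.5, 99.0 and 113 CPM in the 6 removed tendons and 20.3, 45.3 and 78.3 CPM in the 6 intact tendons. Its log2 fold change was 0.78 ± 0.44 (interval -0.12 to 1.69), higher in 5 of 6 pairs. Chrna1, the acetylcholine receptor subunit of the muscle membrane, lay the other way at -0.28 ± 0.38. Ankrd1, a titin-binding protein of stressed muscle that wounds also induce, was higher in the removed tendon in 6 of 6 pairs. For Ankrd1, the 6 removed tendons lay between 43.1 and 144 CPM with a median of 81.7 CPM, and the 6 intact tendons between 31.5 and 77.0 CPM with a median of 53.5 CPM, with a log2 fold change of 0.81 ± 0.34 (interval 0.10 to 1.52). With the block and the muscle level in the fit Ankrd1 had 0.70 ± 0.30 (interval -0.10 to 1.51), and with the muscle level in 29 libraries 0.56 ± 0.29. Cav3, the muscle caveolin, had 0.61 ± 0.38, and Tmod1, which caps thin filaments, 0.42 ± 0.32, each higher in 6 of 6 pairs. In each of the muscle lists 0 tested members were higher in 6 of 6 pairs, beside 1.49% of all features. Cav3, Tmod1 and Mt-nd4l were named after their values were seen. Muscle fibres in the dissected sample and muscle genes in the tendon's own cells cannot be told apart.

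Transcripts of the mitochondrial genome, which are plentiful in muscle, were higher too, short of the threshold. They made up 10.5% ± 2.85 of counts in removed and 8.89% ± 2.06 in intact tendons (SD, 6 libraries each). The share was higher in the removed tendon in 5 of 6 pairs, by 1.58 percentage points on average, and pair 4 had the widest gap (15.8% removed, 10.7% intact). Without removed replicate 4 the means were 9.42% in removed and 8.89% in intact tendons, 0.528 points apart. A two-sided exact permutation test over libraries gave p = 0.316, and exact sign flips within the 6 pairs gave p = 0.0938, where the smallest possible is 0.0312. Adjusted over these 2 exact tests the values were 0.316 and 0.188. All 13 mitochondrial genes tested had a log2 fold change above 0, between 0.21 and 0.38, and 3 of them were higher in 6 of 6 pairs. They come from the same libraries, so they are not separate measurements of the difference. Nuclear genes of mitochondrial respiration had 15 of 15 members above 0 at a median of 0.16, led by the muscle isoform Cox6a2 (0.51 ± 0.39), while the complex I subunit Ndufb8 had 0.19 ± 0.15. Of all features 50.6% lay above 0. The median of these nuclear genes was 0.026 without removed replicate 4 and -0.0092 with the muscle level as a covariate.

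**Figure D3:**
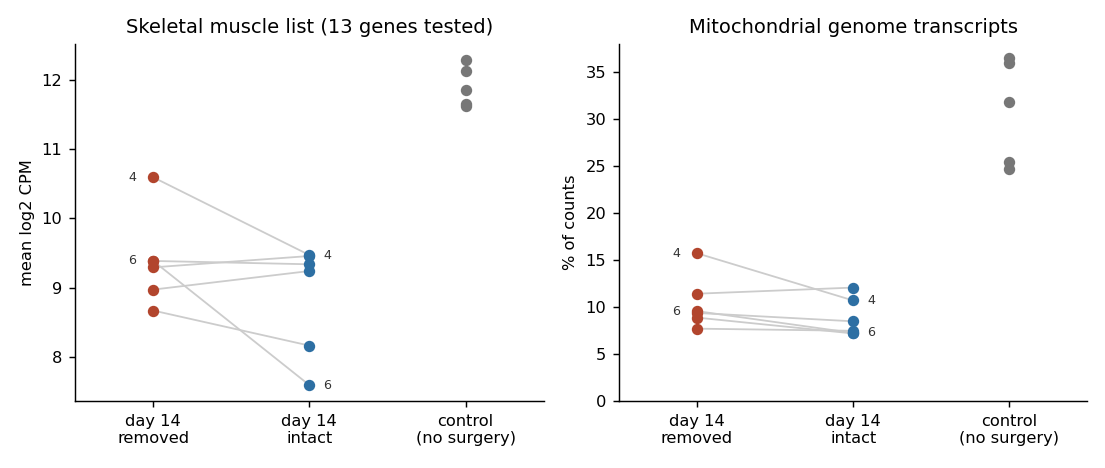
Left, mean log2 CPM of the 13 tested skeletal muscle genes; right, percent of counts from the mitochondrial genome, in day 14 bursa removed, day 14 bursa intact and control tendons, with 1 point per library. Lines join libraries of equal number and the numbers mark replicates 4 and 6, which have the widest gaps in muscle level; control tendons lie above all day 14 tendons in both panels.

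Tendon cell and matrix genes had median differences near 0. Of 11 tested tendon cell genes 0 passed, 5 were above 0 and the median log2 fold change was -0.011, with a range of -0.14 (Mkx) to 0.19 (Angptl7). For Scx, levels ran over 45.5 to 109.6 CPM around a median of 62.5 CPM in the 6 removed tendons, and over 57.1 to 83.0 CPM around 69.7 CPM in the 6 intact tendons, and its log2 fold change was 0.022 ± 0.22 (interval -0.43 to 0.47). For Tnmd, the lowest, median and highest levels were 1217, 1421 and 1755 CPM in the 6 removed tendons and 1222, 1403 and 2201 CPM in the 6 intact tendons, a difference of -0.10 ± 0.26 (interval -0.62 to 0.43). Within pairs the Tnmd interval was -0.29 to 0.15. Mkx, another tendon transcription factor, was at 5.12 to 7.19 CPM in removed and 4.03 to 12.2 CPM in intact tendons (-0.14 ± 0.25). Thbs4, a thrombospondin of tendon matrix, had -0.011 ± 0.14 and the collagen-binding proteoglycan Fmod -0.10 ± 0.21. Ecrg4, a secreted peptide precursor, had 0.19 ± 0.26. In Scx, Tnmd, Mkx, Thbs4 and Fmod the groups overlapped. Of the 11 tested tendon cell genes, 9 had an interval within a 2-fold change.

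Of 21 tested fibrous matrix genes 0 passed, 2 were above 0 and 19 below (of all features 49.4% lay below), with a median of -0.048 and a range of -0.19 (Col14a1) to 0.073 (Eln). The number above 0 was 1 to 13 as single libraries were left out, and 17 with the muscle level as a covariate, so the direction was not stable. It was 13 without removed replicate 4 and 12 without intact replicate 1. For Col1a1, the main fibre collagen, the 6 removed tendons lay between 31964 and 50304 CPM with a median of 40429 CPM, and the 6 intact tendons between 32857 and 51353 CPM with a median of 42249 CPM. Its log2 fold change was -0.012 ± 0.24 (interval -0.51 to 0.48), and within pairs the interval was -0.21 to 0.17. Col3a1, the collagen of early scar, had -0.016 ± 0.17 (interval -0.35 to 0.32). Postn, the scar matrix protein periostin, was at 23275 to 27289 CPM in removed and 19872 to 30043 CPM in intact tendons (-0.051 ± 0.23), against 116 to 388 CPM in control tendons. Col14a1, a fibril-associated collagen, had -0.19 ± 0.23, the lowest of the list, and Tnc, a matrix protein of wounds, 0.038 ± 0.26. Of the 21 tested members, 21 had an interval within a 2-fold change.

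**Figure D4:**
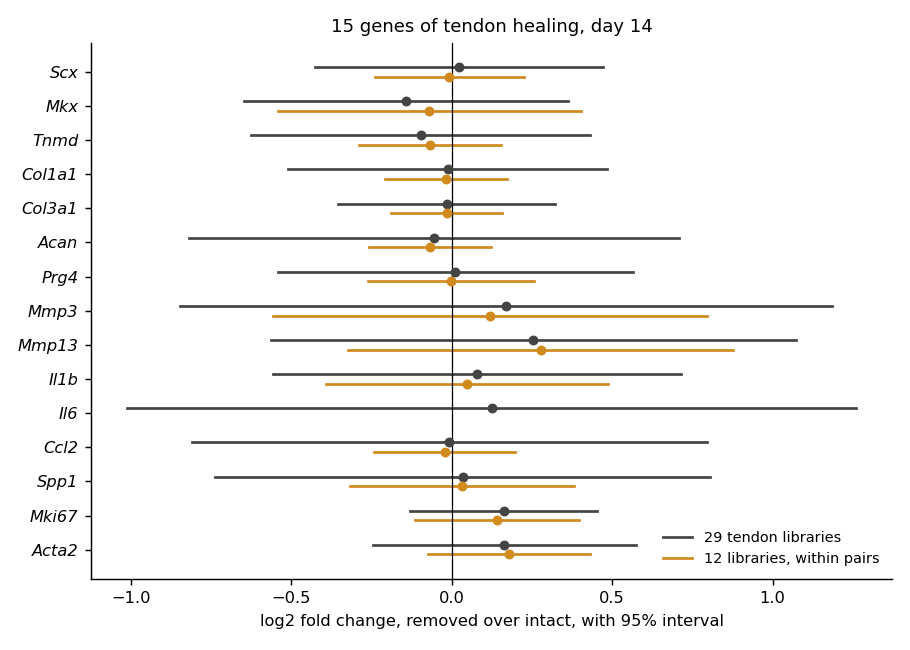
Log2 fold change, bursa removed over bursa intact, of 15 genes of tendon, matrix, inflammation and division with 95% intervals; dark lines are from the fit of 29 tendon libraries and orange lines from the 12 day 14 libraries within pairs (Il6 had no value there). Every interval includes 0, and most within-pair intervals are narrower.

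Proteases that remodel the scar gave 9 of 17 tested members above 0, 0 passing and a median of 0.014. For Mmp13, a collagenase, levels ran over 22.1 to 42.3 CPM around a median of 29.9 CPM in the 6 removed tendons, and over 13.8 to 34.9 CPM around 25.8 CPM in the 6 intact tendons (0.25 ± 0.40, interval -0.56 to 1.07). Mmp13 was at 0 to 0.123 CPM in control tendons. Mmp3, stromelysin, had 0.17 ± 0.49, with removed replicate 1 at 83.5 CPM far above the other removed libraries. Mmp9, a gelatinase of neutrophils and osteoclasts, had 0.69 ± 0.53 and Adamts12 -0.20 ± 0.14. Adamts5, the aggrecanase, was lower in the removed tendon in 6 of 6 pairs. Adamts5 averaged 14.1 ± 2.78 CPM in removed and 16.8 ± 4.16 CPM in intact tendons (SD of 6 libraries each), and the within-pair log2 fold change was -0.23 ± 0.066 (edgeR adjusted p = 0.923). Intervals lay within a 2-fold change for 12 of 17 proteases. Among 9 protease inhibitors 4 were above 0, at a median of -0.011. Timp1, an inhibitor of metalloproteinases, had 0.16 ± 0.18, and Reck, a membrane inhibitor of them, -0.16 ± 0.14, lower in the removed tendon in 6 of 6 pairs at 41.5 to 48.5 CPM removed and 43.9 to 52.7 CPM intact. Adamts5 was named after its values were seen. Over all features 1.35% were lower in 6 of 6 pairs.

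Cartilage genes, which mark fibrocartilage near the insertion, had 2 of 8 tested members above 0 and a median of -0.027. For Acan, the large proteoglycan aggrecan, the lowest, median and highest levels were 417, 705 and 847 CPM in the 6 removed tendons and 441, 754 and 815 CPM in the 6 intact tendons (-0.054 ± 0.37, interval -0.82 to 0.71; within pairs -0.26 to 0.12). Col10a1, the collagen of hypertrophic cartilage, had the largest value of any list member, 2.55 ± 0.97 on the log2 scale, at only 0.128 to 2.18 CPM in removed and 0.0665 to 0.189 CPM in intact tendons. Ucma had -0.37 ± 0.43. Of the 8 cartilage genes, 4 had an interval within a 2-fold change. Bone forming cell genes had 5 of 7 above 0 (median 0.057), with Alpl, alkaline phosphatase, at -0.19 ± 0.23 and Ibsp, bone sialoprotein, at 0.45 ± 0.82. Osteoclast genes had 4 of 6 above 0 (median 0.042), with the receptor Oscar lowest at -0.37 ± 0.35. None passed.

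Genes of synovial lining and lubrication, the functions of the bursa itself, had 5 of 9 tested members above 0 and a median of 0.012. For Prg4, which encodes the lubricant lubricin, the 6 removed tendons lay between 437 and 999 CPM with a median of 509 CPM, and the 6 intact tendons between 414 and 767 CPM with a median of 544 CPM. Its log2 fold change was 0.012 ± 0.27 (interval -0.54 to 0.56), and 3 of 6 pairs were higher in the removed tendon. Tspan15, a tetraspanin, had 0.30 ± 0.20 and Htra1, a secreted serine protease, -0.087 ± 0.14. Of 9 tested members, 9 had an interval within a 2-fold change.

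Immune cell genes had small differences. Of 13 tested monocyte and macrophage genes 8 were above 0 at a median of 0.014, and the range was -0.081 (Cd163) to 0.064 (Aif1), with the mannose receptor Mrc1 at -0.050 ± 0.15. Of these, 13 had intervals within a 2-fold change. Resident type macrophages had 1 of 5 genes above 0 (median -0.085), among them Folr2 at 0.049 ± 0.14 and Lyve1 at -0.17 ± 0.19. Macrophages of the Spp1 and Trem2 type, which handle lipid in scars, had 6 of 8 above 0 (median 0.029). For Spp1, osteopontin, levels ran over 86.5 to 204 CPM around a median of 187 CPM in the 6 removed tendons, and over 113 to 224 CPM around 167 CPM in the 6 intact tendons (0.034 ± 0.38, interval -0.74 to 0.81). The lipid receptor Trem2 had 0.13 ± 0.16 and Arg1, arginase, -0.16 ± 0.56. MHC class II genes had a median of 0.048 over 5 members, with the regulator Ciita at 0.083 ± 0.27 and RT1-DMa at -0.15 ± 0.17.

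Lymphoid and granulocyte genes were low in both arms. Summed over 4 neutrophil genes the level was 3.86 to 5.56 CPM in removed and 3.66 to 6.10 CPM in intact tendons, with 2 of 4 above 0 (median -0.010), Cxcr2 at 0.16 ± 0.43 and Csf3r at -0.18 ± 0.22. T and NK cell genes had 3 of 8 above 0 (median -0.069), from Cd3e (-0.31 ± 0.34) to Cd2 (0.058 ± 0.32). Of the B cell list 1 member was tested, Cd79a, at 0 to 0.243 CPM in removed and 0.0427 to 0.229 CPM in intact tendons (0.24 ± 0.60). Mast cell genes had 4 of 8 above 0 (median 0.13), with the tryptases Tpsab1 at 0.41 ± 0.45 and Tpsb2 at -0.076 ± 0.44. The mast cell median was -0.027 (without removed replicate 6) to 0.29 as single libraries were left out, with 3 to 8 members above 0, and -0.015 within pairs.

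Among 13 tested cytokines and chemokines 8 were above 0 and the median was 0.0078. Il1b, an early inflammatory cytokine, was at 0.825 to 3.57 CPM in removed and 1.06 to 2.73 CPM in intact tendons (0.080 ± 0.31), and Il6 at 0.116 to 1.09 CPM in removed and 0.171 to 0.826 CPM in intact tendons (0.12 ± 0.55). For Ccl2, the monocyte attractant, the lowest, median and highest levels were 12.2, 16.6 and 25.9 CPM in the 6 removed tendons and 14.2, 17.6 and 23.6 CPM in the 6 intact tendons (-0.0077 ± 0.39, interval -0.81 to 0.79). Ptgs2, which makes prostaglandins, had -0.20 ± 0.46. An interval within a 2-fold change was seen for 8 of 13 of these genes. Ccl20 had 1.91 ± 0.85, at no more than 0.381 CPM in any removed and 0.0853 CPM in any intact library. Interferon response genes had 2 of 14 above 0 and the lowest median of the 30 lists, -0.20, ranging over -0.63 (Mx2) to 0.15 (Bst2). That median was -0.41 to 0.12 as single libraries were left out, the positive value being without intact replicate 6. Oasl had -0.41 ± 0.36 and Bst2 0.15 ± 0.16. Immediate early genes had 5 of 13 above 0 (median -0.11), with Egr3 at 0.62 ± 0.35 and Zfp36 at -0.17 ± 0.15. None passed.

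Cell division genes were above 0 in 17 of 17 tested members, against 50.6% of all features, and 0 passed. The median was 0.19 and the range 0.021 (Mcm5) to 0.36 (Birc5). These genes come from the same libraries, so they are not separate measurements of a difference. Their summed level was 227 to 358 CPM in removed and 204 to 283 CPM in intact tendons, so the groups overlapped. For Mki67, the marker of dividing cells, the 6 removed tendons lay between 35.1 and 67.2 CPM with a median of 47.1 CPM, and the 6 intact tendons between 36.7 and 47.2 CPM with a median of 44.8 CPM, 0.16 ± 0.14 on the log2 scale (interval -0.13 to 0.45), higher in 5 of 6 pairs. Top2a, which untangles DNA, had 0.26 ± 0.15, and Birc5, survivin, 0.36 ± 0.19. Birc5 was at 2.95 to 4.67 CPM in removed and 2.33 to 3.84 CPM in intact tendons. It was the only member of the list that was higher in 6 of 6 pairs. The median of the list stayed between 0.11 and 0.26 as single libraries were left out, with 15 to 17 members above 0. With the muscle level as a covariate it was 0.27, and at day 3 it was -0.091.

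Endothelial genes were above 0 in 10 of 10 tested members, against 50.6% of all features, at a median of 0.11. They too come from the same libraries and are not separate measurements. Their summed level was 691 to 865 CPM in removed and 642 to 755 CPM in intact tendons, so the groups overlapped. Cldn5, a tight junction protein, had 0.22 ± 0.18 and Vwf, the clotting factor carrier, 0.24 ± 0.22. The endothelial median was 0.063 with the muscle level as a covariate and 0.044 without both libraries of replicate 4. Myofibroblast and TGF-beta genes had 7 of 13 above 0 (median 0.019). For Acta2, the smooth muscle actin of contractile scar cells, levels ran over 302 to 399 CPM around a median of 339.6 CPM in the 6 removed tendons, and over 252 to 414 CPM around 301 CPM in the 6 intact tendons (0.16 ± 0.20, interval -0.24 to 0.57). Tagln had 0.16 ± 0.20 and the receptor Tgfbr2 -0.11 ± 0.11. Growth factors and Wnt modulators had 6 of 18 above 0 (median -0.062), with Fgf18 at -0.31 ± 0.30. Igf2, a growth factor of fetal tissue and regenerating muscle, was higher in the removed tendon in 5 of 6 pairs. For Igf2, the lowest, median and highest levels were 50.8, 75.3 and 98.9 CPM in the 6 removed tendons and 43.3, 51.0 and 83.4 CPM in the 6 intact tendons, with a log2 fold change of 0.40 ± 0.19 (interval 0.0033 to 0.80) and, within pairs, 0.41 ± 0.10 (edgeR adjusted p = 0.923). With the muscle level in the fit of 29 libraries Igf2 had 0.21 ± 0.14.

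Schwann cell genes had 3 of 9 above 0 (median -0.061). Their transcription factor Sox10 was among the features without overlap, at 0.857 to 1.39 CPM in removed and 0.475 to 0.798 CPM in intact tendons, with a log2 fold change of 0.69 ± 0.35 (edgeR adjusted p = 1.00). Of all features 0.0333% lay so, no more than random splits would give on average, and the Sox10 levels rest on few reads. Pmp2, a myelin protein, lay at -0.40 ± 0.51. Adipocyte genes had 6 of 8 above 0 (median 0.17), with the lipase Lipe at 0.21 ± 0.21 and the droplet protein Plin1 at -0.21 ± 0.95. The adipocyte median was 0.025 with 4 of 8 above 0 without removed replicate 4, the library with the highest muscle level, -0.011 with the muscle level as a covariate and 0.059 within pairs. Hypoxia and glycolysis genes had 5 of 11 (median -0.019), with Ldha, lactate dehydrogenase, at 0.25 ± 0.14 and Vegfa at -0.14 ± 0.19. Red blood cell genes had 4 of 4 (median 0.12), with Alas2, the haem enzyme, at 0.21 ± 0.34. Without removed replicate 6 the red blood cell list had 0 of 4 above 0 (median -0.20), and within pairs 1 of 4 (-0.018). None passed.

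**Figure D5:**
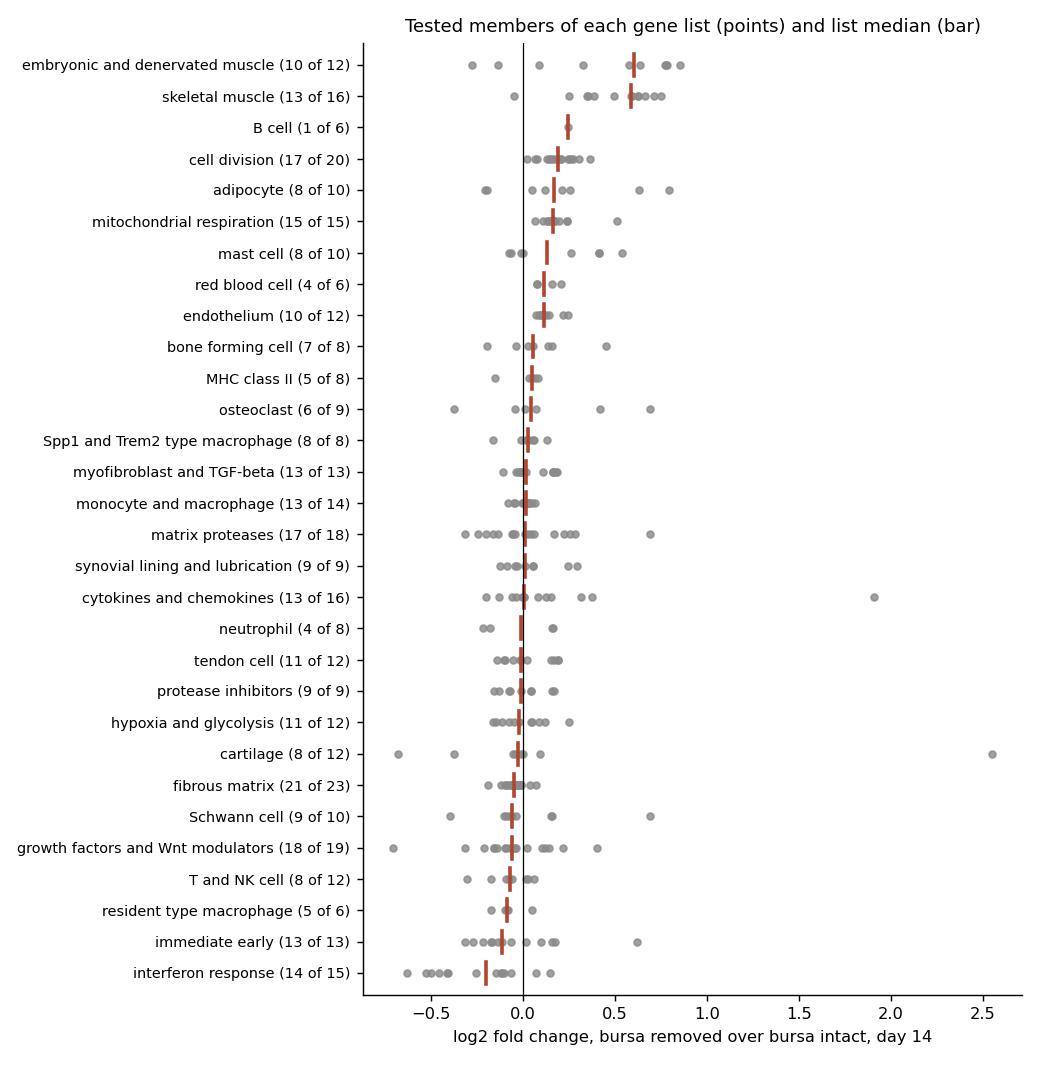
Log2 fold change, bursa removed over bursa intact at day 14, of each tested member of 30 gene lists (grey points), with the list median as a red bar; numbers in brackets are members tested of members listed. Both muscle lists have the highest medians and most other medians lie within 0.2 of 0.

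Since none passed, the genes with the smallest unadjusted p in each direction, among named genes of at least 10 CPM, are given as values. Among the 12 higher in removed tendons, LOC100912571 and Ankrd1 are described above. Anapc13, a subunit of the anaphase promoting complex, was at 18.2 to 22.8 CPM in removed and 15.4 to 19.1 CPM in intact tendons (0.24 ± 0.080). The ribosomal protein gene Rps28 had 0.20 ± 0.080, Elob, elongin B, 0.18 ± 0.076, and Naa38, a subunit of the NatC acetyltransferase, 0.18 ± 0.078. Ttc27 (0.27 ± 0.10), Asb8 (0.19 ± 0.078), Cuedc2 (0.16 ± 0.068), AABR07010649.1 (0.24 ± 0.10) and AABR07006025.1 (0.30 ± 0.13) were of like size. AABR07000398.1 had 1.09 ± 0.42, the only named gene at this level past 2-fold, and this rested on removed replicate 1 at 25095 CPM. The other removed libraries had 2185 to 3257 CPM and the intact libraries 2325 to 4093 CPM, and the value without removed replicate 1 was -0.16.

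Among the 12 lower in removed tendons, Smad5, which carries bone morphogenetic protein signals to the nucleus, had no overlap. For Smad5, the 6 removed tendons lay between 24.9 and 29.7 CPM with a median of 27.7 CPM, and the 6 intact tendons between 29.8 and 34.9 CPM with a median of 31.3 CPM, so every removed library lay below every intact one, with a log2 fold change of -0.20 ± 0.068 (interval -0.33 to -0.056). Prdm4, a zinc finger protein, had no overlap either, at 15.1 to 17.5 CPM in removed and 17.6 to 21.3 CPM in intact tendons (-0.19 ± 0.075). Of all features 0.04% lay so. LOC688583 had the largest difference of the 12 (-0.45 ± 0.18), and 6 of 6 pairs were lower. The others lay between -0.27 and -0.11: Edc3, a factor of mRNA decapping, Tut4, which adds uridines to RNA tails, Tbc1d5, Thap11, Nfia, a transcription factor, Fbxl20, Agap1, Rad17 of the DNA damage checkpoint, and the deubiquitinase Usp31. Each of the 12 was lower in the removed tendon in at least 5 of 6 pairs, and the smallest p chose them, so this is a description.

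Within pairs, the genes lower in removed tendons with the smallest p, named after the values were seen, included Bnc2, Ror1, Pax1 and Tnfrsf11b. Bnc2, a zinc finger protein of fibroblasts, was at 24.9 to 38.1 CPM in removed and 34.1 to 43.5 CPM in intact tendons, with a within-pair difference of -0.27 ± 0.066. Ror1, a receptor for Wnt5a, had -0.23 ± 0.062, Pax1 -0.30 ± 0.081 and Tnfrsf11b, osteoprotegerin, -0.35 ± 0.10. For Tnfrsf11b, levels ran over 9.12 to 23.8 CPM around a median of 14.5 CPM in the 6 removed tendons, and over 12.8 to 28.3 CPM around 17.5 CPM in the 6 intact tendons, lower in 6 of 6 pairs while the groups overlapped. In edgeR all of these had a within-pair adjusted p of 0.923. At day 3, in other libraries, log2 fold changes were -0.27 for Bnc2, -0.25 for Ror1, -0.18 for Pax1 and -0.92 for Tnfrsf11b. None passed there. These genes are only a part of those with a small p within pairs, and the higher direction is not listed likewise. Their shared sign at day 3 is therefore a description.

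Whether the effect of bursa removal itself differed between day 14 and day 3 was tested as an interaction in the same fit, and 0 of 15000 features passed (0% called), with 210 at an unadjusted p under 0.05 in edgeR and 0 called by DESeq2. Among named genes of at least 10 CPM the smallest p belonged to Galnt16, an enzyme that starts O-linked sugar chains. Its level at day 3 was 31.2 to 60.2 CPM in removed and 64.9 to 102 CPM in intact tendons, and at day 14 it was 102 to 139 CPM in removed and 86.6 to 154 CPM in intact tendons. The Galnt16 removed over intact log2 fold change was -0.76 ± 0.15 at day 3 and 0.00017 ± 0.14 at day 14. The difference was 0.76 ± 0.20 (edgeR adjusted p = 1.00). At day 3 the same edgeR fit called 0 of 15000 features between removed and intact tendons, with a smallest adjusted p of 0.226. Stmn4, a stathmin of the microtubule system, had a difference between days of 1.16 ± 0.34, the transcription factor Osr2 of 0.84 ± 0.27, Adamts14, which trims procollagen, of 0.70 ± 0.23 and Pdgfc, a growth factor of the PDGF family, of 0.51 ± 0.17. In these 5 genes the day 14 log2 fold change lay between -0.029 and 0.032, and the day 3 one between -1.19 and -0.50. In the other direction lay Edc3 (-0.41 ± 0.14), Cd24, a surface glycoprotein, (-1.14 ± 0.43), Naa35 (-0.22 ± 0.086), Chrna1 (-1.19 ± 0.48) and Armc8 (-0.25 ± 0.10). Of 8680 named genes of at least 10 CPM, 95.1% had an interval of the difference within 2-fold.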

How the data were processed

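Per the labels, poly(A) RNA of whole tissue was sequenced with Illumina TruSeq chemistry. Per the submitters' processing notes and the file headers, the authors demultiplexed reads with bcl2fastq 2.19 and deposited estimated counts per transcript from kallisto 0.44.0. They also deposited DESeq2 tables per comparison, with log2 fold changes, p-values, a Wald score and a mean normalised signal per gene. Genome build, annotation and DESeq2 version were not given in these sources.

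The count table names transcripts and the DESeq2 tables name genes. Symbols were therefore joined to transcripts, or sums of them, whose scaled means matched the deposited means in every table within a tolerance. The scale of each library was fitted to the deposited means. The tolerance was 0.2 counts plus 0.05% for most symbols and up to 0.5 counts plus 4% for the rest, so those names are less certain. This named 15296 of 23747 symbols, holding 96.0% of counts. An unnamed feature may thus be part of a gene that has a name. Counts were rounded and tested in R 4.3.3 with edgeR 4.0.16 (filterByExpr, TMM, robust quasi-likelihood test) over 29 tendon libraries, with Benjamini-Hochberg adjustment over all features. DESeq2 1.42.0, another normalization and filters, a muscle covariate, and each library or pair left out were alternatives. The code was tested on simulated data. Overlapping and near-identical genes may share reads.

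The members and gene lists were chosen with earlier results of these data known. Named were the 12 genes of smallest p per direction with at least 10 CPM, 15 genes of tendon repair, the extreme member by p of each list, and 5 per direction for the difference between days. Other genes were named after their values were seen. Removed and intact libraries of equal number correlated in their deviations from the group means, by 0.19 to 0.48 at day 14 in all 6 pairs and 0.089 to 0.53 at day 3, over 12337 features. Own number was the best match, in both directions, for 4 of 6 pairs at day 14 and 3 of 6 at day 3. Equal numbers were thus read as pairs at day 14, from the data and not from a label. The standard errors of the deposited table were closer to a blocked fit (median ratio 0.983) than to one without the block (1.07). They lay within 10% of the blocked DESeq2 fit for 99.4% of 11458 genes, and of the fit without the block for 25.8%. The deposited table is thus close to the blocked fit of these same libraries. No label says that samples of a group are separate rats, so p-values measure the spread between these libraries, which may be partly technical.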

Additional observations from a re-analysis of the deposited data

Results flagged for a closer look

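Groups of 6 libraries were examined for named genes, the muscle level, the mitochondrial share and the total counts, in each arm. Of these 86 groups, 7 (8.14%) held a library whose gap to its nearest neighbour was large for the group's range. Chance gives about 1 in 20. AABR07000398.1 was at 25095 CPM in removed replicate 1, against 2185 to 3257 CPM in the other removed libraries. AABR07010649.1 was at 15.3 CPM in removed replicate 3, against 16.7 to 17.5 CPM in the other removed libraries. Mmp3 was at 83.5 CPM in removed replicate 1, against 19.5 to 43.4 CPM in the other removed libraries. Prg4 was at 999 CPM in removed replicate 1, against 437 to 586 CPM in the other removed libraries. Mmp3, Prg4 and AABR07000398.1 were thus highest in the same library. Col3a1 was at 47049 CPM in intact replicate 1, against 33639 to 38604 CPM in the other intact libraries. Spp1 was at 86.5 CPM in removed replicate 4, against 166 to 204 CPM in the other removed libraries. The mean log2 CPM of the skeletal muscle list was 10.60 in removed replicate 4, against 8.67 to 9.39 in the other removed libraries. This library was at the low end for Spp1 and at the high end for muscle.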

How the results depend on the processing

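The count of called features was 0 in every edgeR setting for the day 14 difference: the other normalization, both filters, the compared libraries alone, the replicate block, the muscle covariate, the 12 fits without a library and the 6 without a pair. DESeq2 called 1 in 29 libraries and 4 in 12 libraries with the replicate block. The difference between days had 0 calls in each setting run. In the 12 day 14 libraries, fits chosen after seeing the data, edgeR had 600 features at an unadjusted p under 0.05 with the replicate block and 248 without it, and the block changed no edgeR call. Of 30 gene lists, 6 had a median log2 fold change of the same sign under all 23 settings: both muscle lists, cell division, endothelium, resident type macrophages and immediate early genes. The muscle covariate is the mean of the skeletal muscle list, so that list's sign under it says nothing about its stability. Its median there was 0.038 in 29 libraries (8 of 13 above 0) and 0.0021 in 12 libraries with the block (7 of 13). Of 39 named genes 13 changed sign in a setting, all but AABR07000398.1 with intervals that include 0. With the replicate block over day 14 and day 3 libraries, the values of the other sign were -0.016 for Scx and -0.0097 for Prg4. With the muscle level as a covariate, the values of the other sign were -0.022 for Scx, 0.086 for Col1a1, 0.12 for Col3a1, 0.10 for Acan and 0.21 for Ccl2. In the blocked fit of the 12 day 14 libraries, the values of the other sign were -0.0070 for Scx and -0.0011 for Prg4. In DESeq2 with the block, the values of the other sign were -0.0085 for Scx and -0.0019 for Prg4. With both the block and the muscle level in 12 libraries, the values of the other sign were 0.069 for Col1a1, 0.053 for Col3a1, -0.051 for Mmp3, 0.076 for Acan and -0.048 for Prg4. Over the fits without a library, log2 fold changes ran as follows: AABR07000398.1 -0.16 to 1.27, Scx -0.14 to 0.12, Mmp3 -0.20 to 0.33, Prg4 -0.21 to 0.11, Il6 -0.24 to 0.45, Spp1 -0.057 to 0.17, Il1b -0.19 to 0.24, Ccl2 -0.13 to 0.085, Col1a1 -0.077 to 0.057, Col3a1 -0.084 to 0.053, Acan -0.16 to 0.048, Mkx -0.25 to 0.11, Tnmd -0.16 to 0.029. The cause was not tested. Levels of a few CPM, as for Il6 and Col10a1, rest on few reads, and the other 3 calls of DESeq2 with the block had adjusted p of 0.0186 to 0.0488.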
